A study of Homo sapiens with 10 samples.

Results

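Potassium channel genes were followed in derivatives of the human colon cancer cell line SW620 that had grown out as metastases in mice. The members are the genes whose single listed symbol in the array's annotation starts with KCN. This gave 32 genes out of 4713 with a single listed symbol, and 322 of 54806 rows, each row taken as a probe set for a part of a gene. One such gene was left out by the rule and is not analysed here. All but 1 of the members encode a channel subunit; KCNQ1DN is listed in RefSeq as a long non-coding RNA and is kept apart below. The members lie on chromosome 1 (13 genes), chromosome 11 (9), chromosome 12 (7) and chromosome 10 (3). The values used here list no KCN gene of another chromosome, so those genes could not be analysed. Shares over all genes below are over the 4713 genes of these values and may not stand for the whole genome.

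Total RNA was profiled on 1 Affymetrix HG1.0ST array per sample in lung metastasis derivatives (3 arrays), liver metastasis derivatives (3 arrays) and parental cells (4 arrays). All 10 samples are SW620 cells grown in the same medium, per the labels, and the strain label of every sample, parental ones included, is balb/c. The derivatives were selected in balb/c nude mice, taken out of the metastasis and expanded in culture before RNA was extracted. The labels call the arrays of a group biological replicates but leave unsaid whether each came from its own metastasis or from repeat cultures of 1 derivative. A p-value here therefore reflects the spread among these arrays alone, which may be technical. No batch, passage or mouse is given in the sources used here. In RNA from whole cultures, fewer cells that express a gene and less RNA of it per cell cannot be told apart.

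A potassium channel is a pore that lets potassium ions cross a membrane down their gradient, and in most cells an open one draws the membrane potential towards more negative values. Voltage-gated, calcium- or sodium-activated, inward-rectifier and 2-pore-domain channels differ in what opens the pore, and auxiliary subunits change the gating, trafficking or pharmacology of the pore they bind. In colon epithelium such channels are known for supplying the driving force for chloride secretion and for recycling potassium, and in cultured tumour cells several have been studied in proliferation, volume control and migration.

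Parental array 4 stood apart from the other parental arrays. Pearson correlations across all rows, which are not independent replicates, were 0.968 to 0.970 between it and parental arrays 1 to 3, and 0.987 to 0.989 among those 3. Its correlations with the lung derivatives were 0.966 to 0.967, where parental arrays 1 to 3 had 0.946 to 0.961. Lung changes are therefore given against all 4 parental arrays and, for called genes and where the value moves most, also against parental array 4 alone, by a fit that adds a term for the array set (parental array 4 and the lung arrays, against the other 6). In that fit the parental arm of the lung comparison is 1 array, assumed to vary like the arrays of the other groups, so a call lost there does not by itself show a smaller change. The set was defined from the data, and whether it is a processing batch was not tested.

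The upstream sequences of 3 members that the results turn on are shown here, KCNJ5 and KCNJ1 because they are neighbours on chromosome 11 that were both higher in lung derivatives, and KCNIP2 because it was lower there than in every parental array. They are the 250 bases before an annotated start, from RefSeq on GRCh38.p14, 5′ to 3′. Capitals mark TATAAA or GGGCGG, read on both strands, the TATA-box and GC-box core letters, which do not overlap each other here. These genes were chosen after their values were seen.
KCNJ5, chr11:128891106-128891355, plus strand: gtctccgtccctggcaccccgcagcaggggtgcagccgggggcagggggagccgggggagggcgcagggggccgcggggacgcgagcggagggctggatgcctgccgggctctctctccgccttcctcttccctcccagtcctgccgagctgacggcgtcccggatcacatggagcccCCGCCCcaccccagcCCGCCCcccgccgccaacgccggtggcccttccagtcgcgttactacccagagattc
KCNJ1, chr11:128867297-128867546, minus strand: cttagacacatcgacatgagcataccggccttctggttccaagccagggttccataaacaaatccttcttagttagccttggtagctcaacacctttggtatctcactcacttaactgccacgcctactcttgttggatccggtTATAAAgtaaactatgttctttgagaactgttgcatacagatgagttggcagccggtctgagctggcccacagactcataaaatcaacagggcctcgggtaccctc
KCNJ1, chr11:128842470-128842719, minus strand: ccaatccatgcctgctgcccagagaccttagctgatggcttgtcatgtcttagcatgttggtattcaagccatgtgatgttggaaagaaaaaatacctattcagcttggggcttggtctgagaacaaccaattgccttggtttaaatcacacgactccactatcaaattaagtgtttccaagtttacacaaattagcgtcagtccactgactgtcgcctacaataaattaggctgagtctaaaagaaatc
KCNIP2, chr10:101843801-101844050, minus strand: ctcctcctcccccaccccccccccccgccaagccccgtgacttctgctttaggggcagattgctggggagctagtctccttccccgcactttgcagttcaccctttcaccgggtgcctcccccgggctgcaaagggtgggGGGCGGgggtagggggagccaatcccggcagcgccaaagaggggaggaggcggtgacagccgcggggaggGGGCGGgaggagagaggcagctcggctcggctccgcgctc
KCNIP2, chr10:101839872-101840121, minus strand: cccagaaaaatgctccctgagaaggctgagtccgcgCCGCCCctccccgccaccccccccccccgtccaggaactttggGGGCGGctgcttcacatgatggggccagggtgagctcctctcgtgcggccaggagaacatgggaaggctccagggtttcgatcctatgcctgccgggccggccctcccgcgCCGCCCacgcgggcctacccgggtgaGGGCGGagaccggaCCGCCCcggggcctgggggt
The KCNJ5 sequence was 75.2% G or C and held GGGCGG in 2 places, whereas the upstream KCNJ1 sequence was 47.6% G or C and held TATAAA once. The sequence before the other KCNJ1 start held neither motif. Over the 35116 such sequences of the table, GGGCGG was found in 42.64% and TATAAA in 10.72%, and over the 43 sequences of the 27 members with an entry in 46.51% and 6.98%. A match is a description of the letters and not a binding site. KCNMB4, KCNJ9, KCNJ11, KCNH3 and KCNA1 had no entry in the table.

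In liver derivatives the single potassium channel gene that changed was KCNMB4, an auxiliary beta subunit of the large-conductance calcium-activated channel. As the mean of its rows it had log2 values of 9.29, 9.35 and 9.36 in liver derivatives, against 8.92, 8.76, 8.80 and 8.76 in parental cells. Every liver array was above every parental array, and parental array 4 sat with the other parental arrays. The difference was 0.52 (SE 0.09; 9.33 ± 0.04 against 8.81 ± 0.07, SD, n = 3 and 4), 1.44-fold, with an adjusted p of 0.00349 from limma over the 4713 genes. Genes are called throughout at an adjusted p under 0.05. Leaving out any 1 of the 10 arrays kept the change between 0.51 and 0.56 and the highest limma adjusted p at 0.0216. The array-set term, which in this comparison amounts to leaving out parental array 4, gave 0.51 (SE 0.10, limma adjusted p = 0.00795).

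The rise of KCNMB4 was uneven along its 11 rows. In the order of the row numbers, rows 6, 8 and 9 were called in liver derivatives, with changes of 0.93 (SE 0.14), 0.85 (SE 0.18) and 1.27 (SE 0.25). Row 9 had log2 values of 9.35, 9.70 and 9.81 in liver derivatives, against 8.55, 8.51, 8.29 and 8.05 in parental cells. The lowest liver value of that row thus lay above the highest parental value. Row 4, the brightest of the gene, did not move with the others, with 11.12, 11.10 and 10.99 in liver derivatives, against 10.83, 10.79, 11.12 and 11.58 in parental cells (change -0.01, SE 0.18). Without row 9 the mean change over the other rows was 0.45.

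**Figure D1:**
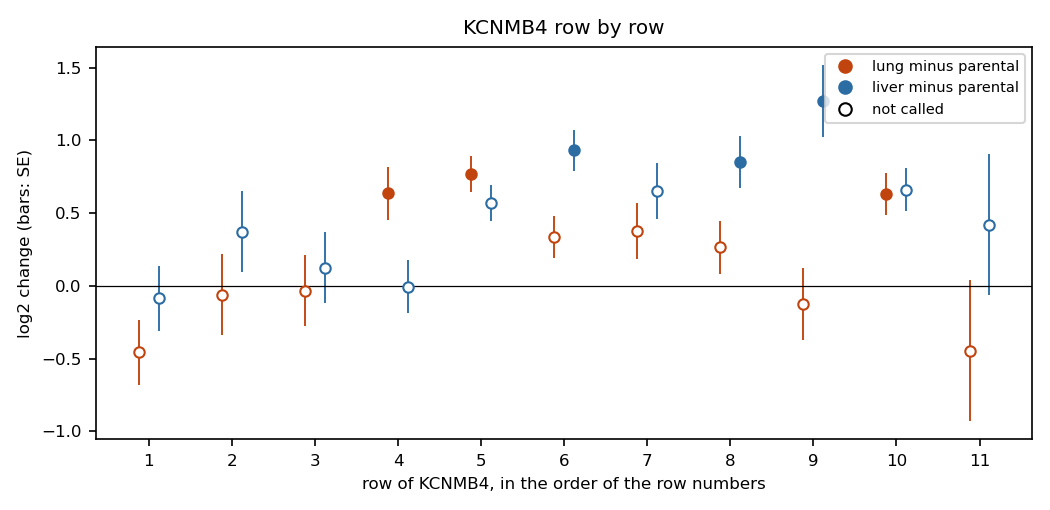
Log2 change (y axis, bars are the SE of the fit) of each of the 11 rows of KCNMB4 (x axis, in the order of the row numbers) in lung (orange) and liver (blue) derivatives against parental cells. Filled points are called rows: rows 6, 8 and 9 in liver derivatives and rows 4, 5 and 10 in lung derivatives.

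Lung derivatives had KCNMB4 at 8.88, 8.84 and 9.22, against 8.92, 8.76, 8.80 and 8.76 in parental cells. Lung arrays 1 and 2 lay within the parental range and lung array 3 above it, and the gene mean was not called (0.17, SE 0.09, limma adjusted p = 0.172). Of its rows, 4, 5 and 10 were called in lung derivatives, with changes of 0.64, 0.77 and 0.63, and these were not the rows called in liver derivatives. Against parental array 4 alone the lung change was 0.22 (SE 0.14, limma adjusted p = 0.359).

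Across the family few liver changes passed the test. Of the 32 members 1 was called higher and 0 lower by limma, and 3 had an unadjusted p under 0.05, KCNMB4, KCNJ11 and KCNK4. Over all genes 4.33% were called higher and 3.5% lower, and the share of members called higher was 3.12%. With the median of the rows in place of their mean, KCNMB4 (0.87), KCNK4 (0.58) and KCNJ11 (-0.49) were called, beside 5.71% of all genes. By rows 6 of the 322 were called, 1.86%, against 2.2% of all rows. The median change of the members was -0.01, and that of all genes 0.01.

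In lung derivatives 5 members rose by the gene mean, KCNA10, KCNJ1, KCNJ5, KCNK2 and KCNT2, and 2 fell, KCNAB2 and KCNIP2. Shares were 15.6% higher and 6.25% lower, against 12.9% and 17.3% of all genes. By rows 26 of the 322 were called, 21 higher and 5 lower, which is 8.07% against 13.1% of all rows. With the array-set term limma called 0 of the 32 members, and 3 had an unadjusted p under 0.05, while 5.75% of all genes were called in either direction. The median change of the members was 0.08 against all 4 parental arrays and 0.03 against parental array 4, and that of all genes was -0.01 against all 4 parental arrays. With the median of the rows in place of their mean, none of the 5 rises was called, KCNAB2 still was (-0.63, limma adjusted p = 0.0311), and KCNJ10 was called higher (0.63, limma adjusted p = 0.0193), beside 18.6% of all genes called in either direction. When each array was centred on its median, or the rows were quantile normalized, KCNAB2 was not called and the members called were 5 higher and 1 lower. The balance over all genes moved as well. Of 1383 genes called after centring 750 were higher, and of 1223 after quantile normalization 641, against 606 of 1420 in the reported fit.

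**Figure D2:**
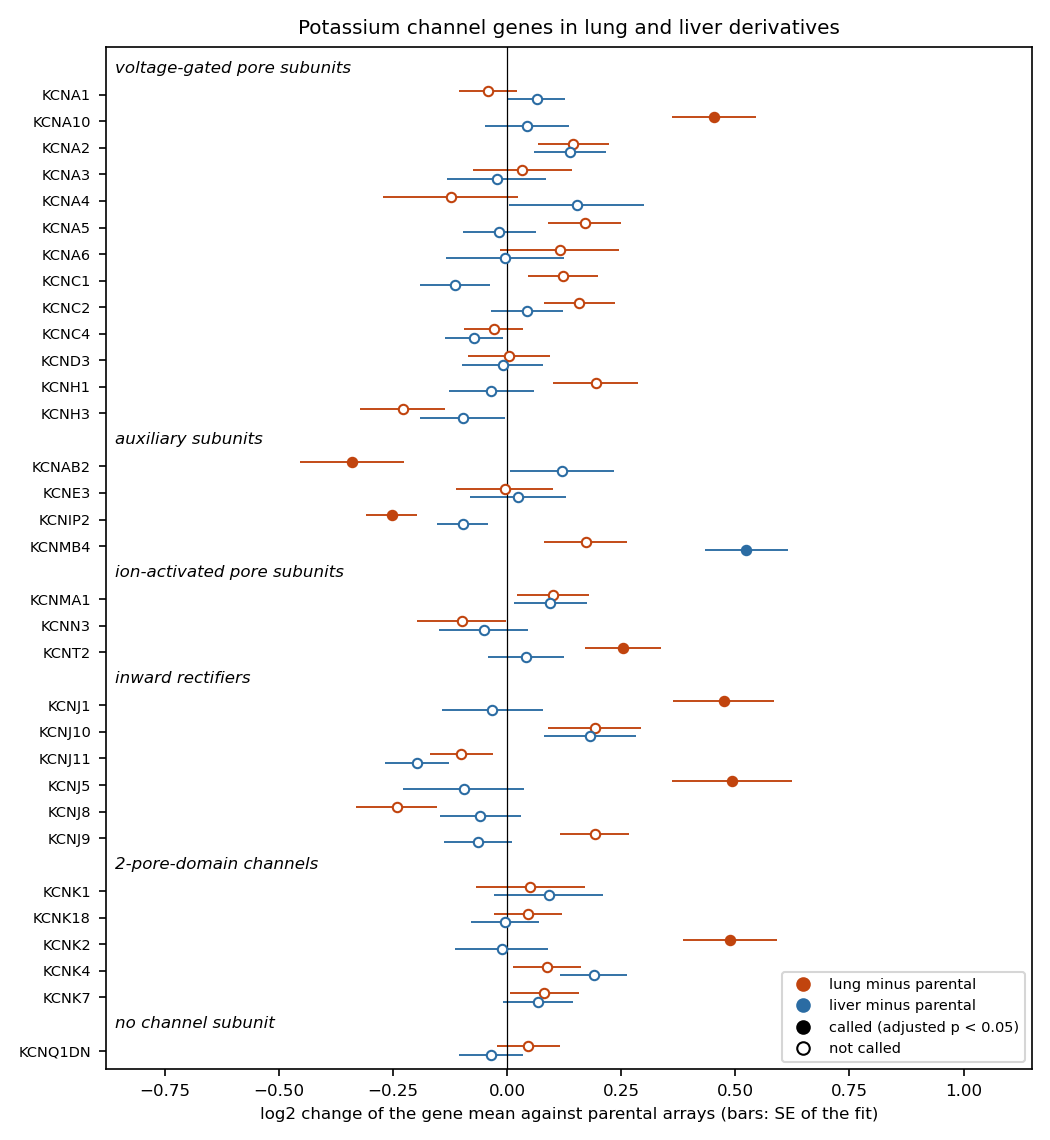
Log2 change of the gene mean (x axis, bars are the SE of the fit) of each of the 32 members (y axis, by role) in lung (orange) and liver (blue) derivatives against parental cells. Filled points are called genes: KCNMB4 in liver derivatives, and in lung derivatives KCNA10, KCNJ1, KCNJ5, KCNK2 and KCNT2 on the right and KCNAB2 and KCNIP2 on the left.

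Among 13 voltage-gated pore subunits, KCNA10, a Shaker-type channel known from inner ear hair cells, was the called one, beside 12.9% of all genes called higher in lung derivatives. Its gene mean was 8.12, 8.15 and 8.12 in lung derivatives, against 7.50, 7.61, 7.66 and 7.95 in parental cells. All lung arrays were above all parental arrays, and parental array 4 was the nearest to them. The change was 0.45 (SE 0.09, 1.37-fold, limma adjusted p = 0.00586), and against parental array 4 it was 0.18 (SE 0.08, limma adjusted p = 0.209). Liver derivatives, at 7.75, 7.71 and 7.71, lay within the parental range (0.04, SE 0.09). Of its 4 rows 1 was called, which had 10.12, 10.13 and 10.22 in lung derivatives, against 9.06, 9.20, 9.18 and 9.91 in parental cells. KCNA2 and KCNA3, Shaker-type channels of neurons and T cells whose genes are its neighbours on chromosome 1, were not called, at 0.15 (SE 0.08) and 0.03 (SE 0.11) in lung derivatives.

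The other 12 voltage-gated members ranged from -0.23 (KCNH3) to 0.19 (KCNH1) in lung derivatives and from -0.11 (KCNC1) to 0.15 (KCNA4) in liver derivatives, and limma called 0 in either (KCNH3 alone had an unadjusted p under 0.05, in lung derivatives). KCNH1, the ether-à-go-go channel known for its presence in many tumours, had a gene mean of 6.50 ± 0.21 in lung derivatives and 6.31 ± 0.09 in parental cells (SD, n = 3 and 4), a difference of 0.28 (SE 0.14) against parental array 4. Of its 13 rows 2 were called higher in lung derivatives, by 0.87 and 1.80. In its relative KCNH3, known from brain, 1 of 16 rows was called lower in both comparisons, at -2.02 in lung and -1.26 in liver derivatives, with a gene mean change of -0.23 (SE 0.09) and -0.10 (SE 0.09). The remaining Shaker-type genes in lung derivatives were KCNA1 (-0.04), KCNA4 (-0.12), KCNA5 (0.17) and KCNA6 (0.12). The fast Shaw-type genes KCNC1, KCNC2 and KCNC4 had differences there of 0.12, 0.16 and -0.03, and KCND3, a pore of transient outward current, 0.00. KCNA1 averaged 7.62 in lung, 7.72 in liver and 7.66 in parental arrays. KCNA2 averaged 6.44 in lung, 6.43 in liver and 6.29 in parental arrays. KCNA3 averaged 6.64 in lung, 6.59 in liver and 6.61 in parental arrays. KCNA1 and KCNA2 help set the resting and firing behaviour of excitable cells, and KCNA3 is known from T cells. KCNA4 averaged 5.71 in lung, 5.99 in liver and 5.83 in parental arrays. KCNA5 averaged 7.21 in lung, 7.02 in liver and 7.04 in parental arrays. KCNA6 averaged 7.42 in lung, 7.30 in liver and 7.30 in parental arrays. The Shaw-type genes serve fast-firing neurons. KCNC1 averaged 7.40 in lung, 7.16 in liver and 7.28 in parental arrays. KCNC2 averaged 6.84 in lung, 6.73 in liver and 6.68 in parental arrays. KCNC4 averaged 8.28 in lung, 8.24 in liver and 8.31 in parental arrays. KCND3 and KCNH3 complete the voltage-gated group. KCND3 averaged 6.66 in lung, 6.65 in liver and 6.66 in parental arrays. KCNH3 averaged 7.46 in lung, 7.59 in liver and 7.69 in parental arrays.

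Both lung falls were among the 4 auxiliary subunits, beside 17.3% of all genes called lower in lung derivatives. So few genes do not describe the class. KCNIP2, a calcium-binding protein that associates with KCND channels in heart, had gene means of 7.23, 7.23 and 7.26 in lung derivatives, against 7.49, 7.50, 7.45 and 7.52 in parental cells. All lung arrays were below all parental arrays, and parental array 4 was the farthest from them. The change was -0.25 (SE 0.06, limma adjusted p = 0.00851), and -0.29 against parental array 4 (SE 0.08, limma adjusted p = 0.0612). Liver derivatives had 7.41, 7.45 and 7.32, between the lung and most parental arrays (-0.10, SE 0.06, limma adjusted p = 0.426). Row by row the fall was uneven: 13 of the 20 rows were lower in lung derivatives and 1 was called, with 5.30, 5.54 and 5.83 in lung derivatives, against 6.91, 6.85, 6.71 and 6.84 in parental cells. With the median of the rows in place of their mean the change was 0.03, and with the rows below the median level left out it was -0.11 (limma adjusted p = 0.577).

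KCNAB2, a cytoplasmic beta subunit of Shaker-type channels with an aldo-keto reductase fold, had gene means of 9.64, 9.72 and 9.79 in lung derivatives, against 10.21, 10.21, 10.12 and 9.69 in parental cells. Parental array 4 lay among the lung arrays and the other parental arrays lay above all of them. The change was -0.34 (SE 0.11, limma adjusted p = 0.0443) against all parental arrays and 0.03 (SE 0.09, limma adjusted p = 0.87) against parental array 4. Leaving out any 1 array other than parental array 4 ended the call (adjusted p-values up to 0.139), while the change stayed between -0.46 and -0.29 over the 10 left-out arrays. The change was spread over the gene, with 17 of its 20 rows lower in lung derivatives. Liver derivatives had 10.24, 10.14 and 10.16, which overlapped with parental cells (0.12, SE 0.11).

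KCNE3, a single-span subunit known for its role in colonic crypts, was not called in any comparison. Its gene means were 9.52, 9.72 and 9.31 in lung derivatives, 9.48, 9.55 and 9.60 in liver derivatives, and 9.42, 9.48, 9.43 and 9.76 in parental cells. Parental array 4 held the highest value of the 10 arrays. The change was -0.01 (SE 0.11) in lung and 0.02 (SE 0.11) in liver derivatives, and -0.24 (SE 0.13) in lung derivatives against parental array 4.

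**Figure D3:**
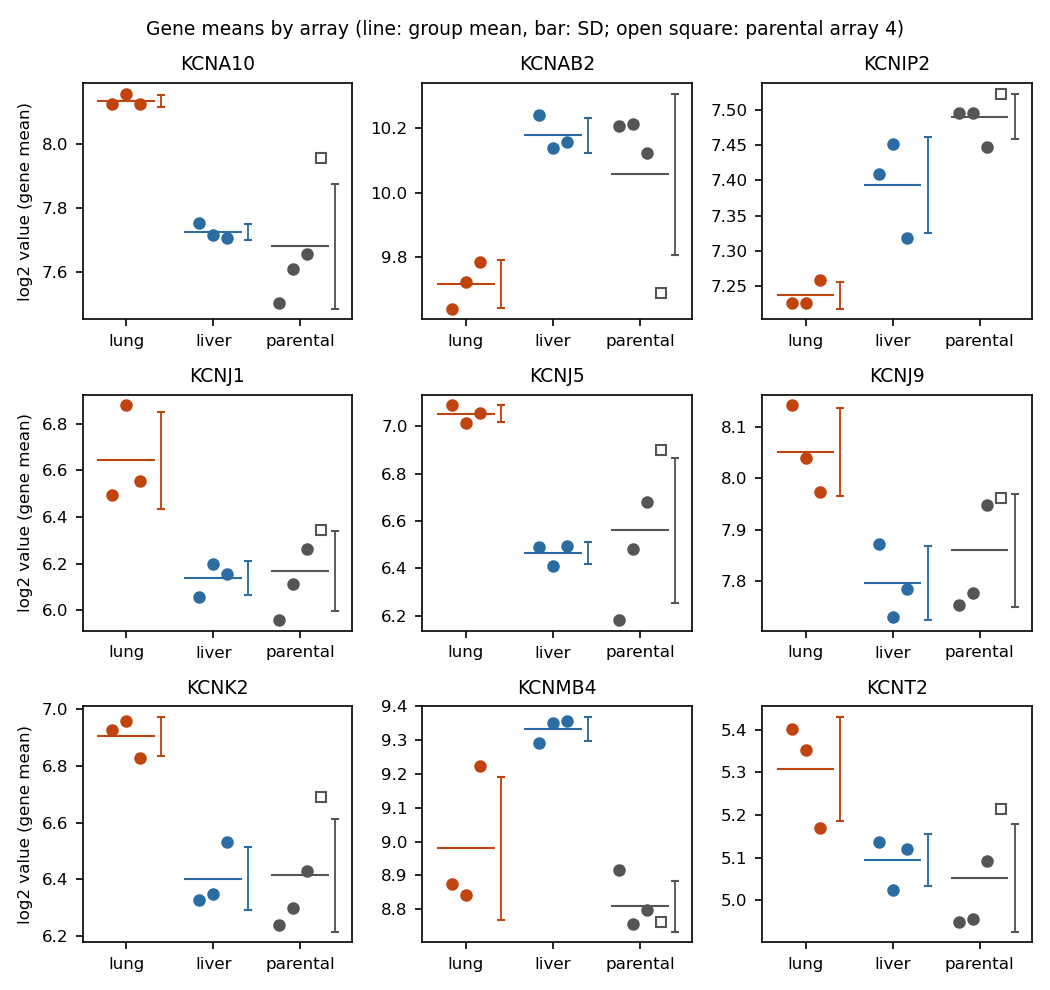
Gene means as log2 values (y axis) in each array of lung (orange), liver (blue) and parental (grey) samples, for the 9 members called in at least 1 comparison. Lines are group means and bars the SD, and the open square is parental array 4. That array lies between the lung arrays and the other parental arrays in KCNA10, KCNJ1, KCNJ5, KCNJ9 and KCNK2. It lies among the lung arrays in KCNAB2 and KCNT2.

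The pore subunits gated by calcium or sodium were KCNMA1, KCNN3 and KCNT2. KCNT2, a sodium-activated channel, had gene means of 5.40, 5.35 and 5.17 in lung derivatives, against 4.95, 4.96, 5.09 and 5.21 in parental cells. Lung array 3 was below parental array 4, so the groups overlapped, and liver derivatives had 5.14, 5.02 and 5.12. The change was 0.25 (SE 0.08, limma adjusted p = 0.0402), and 0.09 against parental array 4 (SE 0.11, limma adjusted p = 0.616). Leaving out any 1 array other than parental array 4 or lung array 3 ended the call (adjusted p-values up to 0.145), while the change stayed between 0.21 and 0.32. Of its 29 rows 5 were called, all higher, by 1.05 to 1.58. With the median of the rows the change was -0.0096.

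KCNMA1, the pore of the large-conductance channel that KCNMB4 binds, was not called, at 0.10 (SE 0.08) in lung and 0.09 (SE 0.08) in liver derivatives, with 0 of its 42 rows called by limma in either (7 in lung and 2 in liver derivatives had an unadjusted p under 0.05). The liver rise of KCNMB4 was thus not accompanied by a called change of KCNMA1, whose gene mean was 6.62 ± 0.07 in liver derivatives and 6.52 ± 0.06 in parental cells (SD, n = 3 and 4). The small-conductance channel KCNN3 had differences of -0.10 (SE 0.10) in lung and -0.05 (SE 0.10) in liver derivatives. KCNN3 averaged 6.35 in lung, 6.40 in liver and 6.45 in parental arrays.

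Of 6 inward rectifiers 2 rose in lung derivatives, the neighbours KCNJ1 and KCNJ5, beside 12.9% of all genes called higher there. KCNJ5, a G protein-gated channel known from heart and adrenal cortex, had gene means of 7.09, 7.02 and 7.06 in lung derivatives, against 6.18, 6.48, 6.68 and 6.90 in parental cells. The lung arrays lay close together and above a wide parental range, whose top was parental array 4, and liver derivatives had 6.49, 6.41 and 6.49. The change was 0.49 (SE 0.13, 1.41-fold, limma adjusted p = 0.0189), and 0.15 against parental array 4 (SE 0.15, limma adjusted p = 0.558). It was not called without parental array 2 (0.47, limma adjusted p = 0.0536) or without lung array 1 (0.48, limma adjusted p = 0.062). Of its 9 rows 8 were higher in lung derivatives, and limma called 0 of them alone (3 had an unadjusted p under 0.05).

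KCNJ1, the renal outer medullary channel, had gene means of 6.50, 6.88 and 6.55 in lung derivatives, against 5.96, 6.11, 6.26 and 6.34 in parental cells. All lung arrays were above all parental arrays (0.47, SE 0.11, 1.39-fold, limma adjusted p = 0.0105; 0.30 against parental array 4, SE 0.15, limma adjusted p = 0.268). Liver derivatives had 6.06, 6.20 and 6.16, within the parental range. A single row carried most of the lung change. That row had 8.15, 8.56 and 7.99 in lung derivatives, against 4.75, 4.90, 5.80 and 6.93 in parental cells, a change of 2.64 (SE 0.47, limma adjusted p = 0.0119). Of the 8 rows 4 were higher in lung derivatives, the mean change without that row was 0.17, and by the brightest row of the gene it was -0.07.

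The other inward rectifiers were not called against parental cells. KCNJ8 and KCNJ11, pore subunits of ATP-sensitive channels, had differences of -0.24 (SE 0.09) and -0.10 (SE 0.07) in lung derivatives and of -0.06 (SE 0.09) and -0.20 (SE 0.07) in liver derivatives. KCNJ11 was below every parental array in all 3 liver arrays, with a limma adjusted p of 0.14. KCNJ8 was called lower in lung derivatives without parental array 4 (-0.32, limma adjusted p = 0.00248), and parental array 4 held 6.84 against 7.14 to 7.24 in the other parental arrays. Against parental array 4 the lung value of KCNJ8 was 0.0078 (SE 0.08). KCNJ9, a G protein-gated channel, and its neighbour KCNJ10, known from glia, both had a difference of 0.19 in lung derivatives (SE 0.08 and 0.10), and of -0.06 and 0.18 in liver derivatives. KCNJ8 averaged 6.85 in lung, 7.03 in liver and 7.09 in parental arrays. KCNJ10 averaged 7.66 in lung, 7.65 in liver and 7.47 in parental arrays. KCNJ11 averaged 7.15 in lung, 7.05 in liver and 7.25 in parental arrays.

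Among 5 genes of 2-pore-domain channels KCNK2 was called, beside 12.9% of all genes called higher in lung derivatives. KCNK2, a background channel opened by stretch and lipids, had gene means of 6.93, 6.96 and 6.83 in lung derivatives, against 6.24, 6.30, 6.43 and 6.69 in parental cells. The groups did not overlap, and parental array 4 was the parental array nearest to the lung derivatives. Liver derivatives had 6.33, 6.35 and 6.53, within the parental range. The change was 0.49 (SE 0.10, 1.40-fold, limma adjusted p = 0.00672), and 0.21 against parental array 4 (SE 0.11, limma adjusted p = 0.257).

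Of the 13 rows of KCNK2, 3 were called in lung derivatives and differed in where parental array 4 lay. One of them had 11.08, 10.59 and 10.55 in lung derivatives, against 8.39, 8.41, 8.66 and 10.52 in parental cells, with parental array 4 just below the lowest lung array. Another had 7.73, 7.55 and 7.68 in lung derivatives, against 6.93, 6.87, 7.07 and 7.10 in parental cells, with parental array 4 among the parental arrays. The third row rose by 1.08 (SE 0.20).

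The other 2-pore-domain genes were KCNK1, KCNK4, KCNK7 and KCNK18, with lung changes from 0.05 to 0.09 (KCNK1 was 0.05, and -0.16 against parental array 4) and liver changes from -0.01 (KCNK18) to 0.19 (KCNK4). KCNK4, a mechanically gated relative of KCNK2, was above every parental array in all 3 liver arrays with a limma adjusted p of 0.186. Of its 9 rows 1 was called higher in liver derivatives, by 0.65, and 2 were called in lung derivatives, by 0.37 and -0.92. The non-coding KCNQ1DN had differences of 0.05 (SE 0.07) in lung and -0.035 (SE 0.07) in liver derivatives and was not called. KCNK1 averaged 7.17 in lung, 7.21 in liver and 7.12 in parental arrays. KCNK4 averaged 7.70 in lung, 7.80 in liver and 7.61 in parental arrays. KCNK7 averaged 8.60 in lung, 8.58 in liver and 8.52 in parental arrays. KCNK18 is known from sensory neurons. KCNK18 averaged 7.04 in lung, 6.99 in liver and 6.99 in parental arrays. KCNQ1DN averaged 8.45 in lung, 8.37 in liver and 8.40 in parental arrays.

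**Figure D4:**
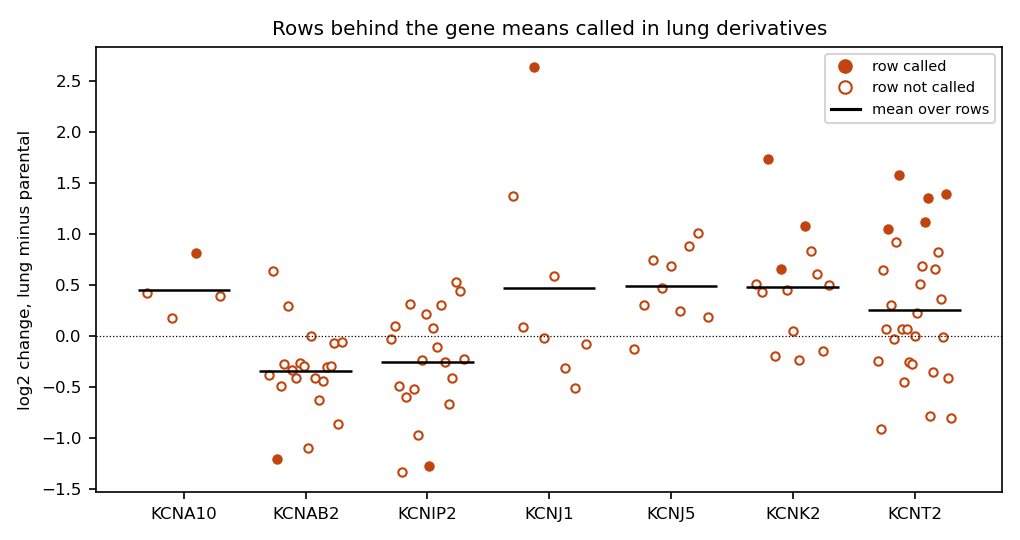
Log2 change in lung derivatives against parental cells (y axis) of every row (points, filled where called) of the 7 members whose gene mean was called there (x axis), with the mean over rows as a line. One row at 2.64 stands far above the others in KCNJ1, and 17 of 20 rows of KCNAB2 lie below 0.

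Between the derivatives, 5 members were higher in lung than in liver and 2 lower. The members' shares, 15.6% and 6.25%, stand beside 8.02% and 11.9% of all genes, and 28 of the 322 rows were called (8.7%) against 12.6% of all rows. KCNMB4 was lower in lung derivatives (8.98 ± 0.21) than in liver derivatives (9.33 ± 0.04, SD, n = 3 each), by -0.35 (SE 0.10, limma adjusted p = 0.0304), with every lung array below every liver array. By its brightest row alone KCNMB4 was called the other way, higher in lung derivatives (0.64, limma adjusted p = 0.0326). KCNAB2 was also lower in lung derivatives, by -0.46 (SE 0.12, limma adjusted p = 0.0271). KCNJ5 (0.59, SE 0.14), KCNJ1 (0.51, SE 0.12), KCNK2 (0.50, SE 0.11), KCNA10 (0.41, SE 0.10) and KCNJ9 (0.26, SE 0.08) were higher. For KCNJ1 1 row (3.21) carried most of the difference: the mean without it was 0.12, and the brightest row gave -0.17. KCNJ9 had 8.14, 8.04 and 7.97 in lung derivatives, against 7.87, 7.73 and 7.79 in liver derivatives, without overlap, and a limma adjusted p of 0.0467.

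The calls between lung and liver depended on single arrays and on the array set. With the set term limma called 0 of the 32 members and 0.0849% of all genes, and 1 member had an unadjusted p under 0.05. In that fit the difference was -0.29 (SE 0.17) for KCNMB4 and 0.03 (SE 0.10) for KCNAB2. Leaving out liver array 1 or liver array 2 left 0 members called by limma, liver array 3 or lung array 1 left 1, and leaving out parental array 4 gave 9. The calls over all genes moved with them, to 364, 31, 174, 188 and 1523, against 937 with all arrays. The differences themselves kept their sign over the left-out arrays. They lay between 0.56 and 0.61 for KCNJ5, 0.40 and 0.42 for KCNA10, 0.46 and 0.56 for KCNK2, and -0.49 and -0.42 for KCNAB2. The other called members lay between -0.47 and -0.28 for KCNMB4, 0.39 and 0.58 for KCNJ1, and 0.21 and 0.30 for KCNJ9. KCNJ9 lost its call in 8 of the 10 left-out fits.

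Other genes of potassium and ion transport were counted from fixed lists. Over all genes 4.33% were called higher and 3.5% lower in liver derivatives, and 12.9% and 17.3% in lung derivatives. None of 5 measured partner subunits of potassium channels (ABCC8 and ABCC9 of ATP-sensitive channels, LRRC38, LRRC52 and LRRC55 of the large-conductance channel) was called by limma in liver or lung derivatives, and 1 had an unadjusted p under 0.05 in each. Of 3 measured sodium pump genes, ATP1B1, the pump's beta subunit, was higher in liver derivatives (10.66 against 10.36 in parental cells; 0.30, SE 0.07, limma adjusted p = 0.0233) and 0 were called in lung derivatives, where 1 had an unadjusted p under 0.05.

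Of 17 other cation channel genes 1 rose and 4 fell in liver derivatives, and 1 rose and 5 fell in lung derivatives. These counts stand beside 4.33% and 3.5% of all genes in liver and 12.9% and 17.3% in lung derivatives. The calcium channel pore CACNA1E rose in both, to 7.34 in liver derivatives against 6.65 in parental cells (0.69, SE 0.08), and by 0.47 (SE 0.08) in lung derivatives. The sodium channel SCN8A fell in both, by 0.60 (SE 0.08) in liver and 0.59 (SE 0.08) in lung derivatives, as did the calcium channel beta subunit CACNB3, by 0.55 (SE 0.06) and 0.50 (SE 0.06), and the lysosomal channel TPCN2, by 0.28 and 0.25 (SE 0.07 each). CACNA2D4 fell in liver derivatives by 0.24, and SCNN1A, a subunit of the epithelial sodium channel, and TPCN1 fell in lung derivatives by 0.28 and 0.42. TPCN1 was not called in liver derivatives (-0.21, SE 0.08, limma adjusted p = 0.203), but was called there with the array-set term (-0.27, limma adjusted p = 0.0287). Against parental array 4, SCN8A (-0.64) and CACNB3 (-0.43) were called in lung derivatives. CACNA1E (0.47), TPCN2 (-0.26), SCNN1A (-0.22) and TPCN1 (-0.22) were not called there, with limma adjusted p-values of 0.0545, 0.142, 0.131 and 0.191.

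Of 13 chloride channel genes 1 was higher in liver derivatives and 5 in lung derivatives, beside 4.33% and 12.9% of all genes. ANO1, a calcium-activated chloride channel, was 9.94 in lung derivatives against 9.25 in parental cells (0.69, SE 0.09, limma adjusted p = 0.000726), and 0.43 higher than in parental array 4. In liver derivatives ANO1 was 9.57 and not called (0.31, SE 0.09, limma adjusted p = 0.0729). With the array-set term its liver change was called (0.40, limma adjusted p = 0.0037), and lung minus liver was 0.03. BEST3, of the bestrophin family, was higher in both, by 0.68 (SE 0.08) in liver and 0.37 (SE 0.08) in lung derivatives. ANO4 (0.24), ANO5 (0.33) and CLCA2 (0.38) were called in lung derivatives. Against parental array 4 the lung values were 0.31 for BEST3, 0.30 for ANO4, 0.16 for ANO5 and 0.24 for CLCA2, none of them called. The liver and lung comparisons share the parental arrays.

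Calls among markers of other cell types differed between the lists. The shares over all genes were 12.9% higher and 17.3% lower in lung derivatives, and 4.33% and 3.5% in liver derivatives. In lung derivatives 4 of 7 leukocyte markers were higher and 1 lower. So were 2 of 5 lung epithelium, 2 of 6 stromal and 1 of 5 endothelial markers higher, and the stromal marker LUM lower (-0.62, SE 0.20, and -1.15 against parental array 4). The change against all parental arrays, then against parental array 4, was 1.64 and 1.18 for LYZ and 0.71 and 0.77 for CD4. It was 0.37 and 0.18 for MS4A1, 0.19 and 0.22 for PTPRC, and -0.46 and -0.35 for FCER1G. For PDPN it was 0.35 and 0.29, and for SFTPA1 0.39 and 0.17. C1R had 0.275 and 0.38, DCN 0.26 and 0.06, and SELE 0.29 and 0.25. In liver derivatives 2 of 7 leukocyte markers, CD4 (0.99) and LYZ (0.97), were higher, while LUM (-1.97, SE 0.20) and the neuronal gene NCAM1 (-1.53, SE 0.21) were lower. Hepatocyte markers (5) and muscle markers (5) gave 0 calls by limma in either, with 3 and 1 at an unadjusted p under 0.05 in lung and 0 and 0 in liver derivatives. The mean level of the leukocyte list was 6.52 to 6.64 in lung, 6.41 to 6.50 in liver and 6.14 to 6.29 in parental arrays. That of the lung epithelium list was 7.44 to 7.52 in lung, 7.30 to 7.42 in liver and 7.22 to 7.39 in parental arrays. Colon epithelium markers averaged 9.79 to 9.94 in lung, 9.61 to 9.70 in liver and 9.92 to 10.09 in parental arrays, and an array value has no true 0. Of 4 colon epithelium markers TSPAN8 and ELF3 were lower in both derivatives, and both measured neuronal genes, NCAM1 and SYT1, were lower in lung derivatives. Their part in the potassium channel results was not tested.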

How the data were processed

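The deposited values are log2 expression values per row, made by the authors with RMA and oligo (named in the submitters' processing notes, with neither a version nor a summary level stated), per the labels; arrays were labelled with biotin and hybridised, per the labels' protocols. The medians of the 10 arrays lay between 8.52 and 8.60, with the lung arrays lowest, at 8.52 to 8.55. RMA's common distribution hides a change in total RNA. The number of arrays limits the precision. The table has 65535 rows; 56949 list a gene and 54806 list 1 symbol. Symbols were updated through a RefSeq gene table (4102 current, 601 by synonym, 24 kept as listed), giving 4713 genes, and all rows of a gene were averaged.

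Gene means, and separately rows, were fitted with limma (version 3.58.1, R 4.3.3), 1 coefficient per group over all 10 arrays, two-sided, with Benjamini-Hochberg adjustment over 4713 genes or 56949 rows. Fits were tested on simulated data with independent noise. Those data held no shift shared by parental array 4 and the lung arrays, so they say nothing about the lung calls. Per-array values are given for members called by the gene mean, those with at least 3 rows called, and the 3 brightest; the others are named by role with mean levels. Protein sequences were not used here. Members, lists and the array set were chosen with earlier results of these data known. Log2 values of different genes do not rank their RNA levels.

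Replicate numbers are shared between groups, but same-numbered arrays did not deviate together (correlations of deviations from -0.203 to 0.132), so no pairing was used. Alternatives were the brightest row or median of rows, 2 normalizations, a filter on dim rows, 2-group fits, trend and robust eBayes, the array set, a replicate block, and each array left out.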

Additional observations from a re-analysis of the deposited data

Results flagged for a closer look

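KCNAB2 stood out within the parental group, where parental array 4 held 9.69 against 10.12 to 10.21 in the other 3 arrays, a gap of 0.831 of the group's range; chance gives such a gap in about 1 of 20 groups of 4, and 32 genes were examined.

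7 members differed between lung and liver derivatives by the direct limma contrast. Of the members 15.6% were called higher and 6.25% lower in lung derivatives, beside 8.02% and 11.9% of all genes. KCNA10 (0.41), KCNJ1 (0.51), KCNJ5 (0.59), KCNJ9 (0.26) and KCNK2 (0.50) were higher in lung derivatives, and KCNAB2 (-0.46) and KCNMB4 (-0.35) lower. None was called with the array-set term, a fit in which the lung-liver difference rests on parental array 4 as the link between the sets.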

How the results depend on the processing

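Counts of called genes depended on how rows were summarised. In liver derivatives 1 potassium channel gene became 0 by the brightest row (2 at an unadjusted p under 0.05 with limma) and 3 by the median of rows, and stayed at 1 under the other alternatives. In lung derivatives 7 became 2 by the median of rows and 0 under the array-set term (3 at an unadjusted p under 0.05), and 4 to 9 when 1 array was left out, with 4 without parental array 2 or lung array 1. Lung against liver, 7 became 0 with the set and 0 to 9 without 1 array. The calls over all genes moved too. The 369 in liver derivatives became 134 by the brightest row and 269 by the median of rows. The 1420 in lung derivatives became 877 by the median of rows and 832 to 1950 without 1 array. The 937 of lung against liver became 31 to 1523 without 1 array. For rows, the 6 in liver derivatives became 1 with the replicate block and 0 to 7 without 1 array. Over all rows those 1252 calls became 786 with the replicate block and 527 to 1464 without 1 array. The 26 in lung derivatives became 14 without dim rows, where fewer member rows were tested, 9 in the 2-group fit and 59 with the replicate block. They became 10 to 70 without 1 array, with 70 without parental array 4, and fell with the set, where the parental arm is 1 array. Over all rows the 7483 calls became 2120 in the 2-group fit, 12420 with the replicate block and up to 16222 without 1 array. Without dim rows 8127 were called, of 29588 rows tested in place of 56949. The 28 of lung against liver became 50 in the 2-group fit, 0 with the set, 49 with the replicate block and 0 to 67 without 1 array. Over all rows the 7194 calls of lung against liver became 9426 in the 2-group fit, 10045 with the replicate block and 0 to 14167 without 1 array. The replicate block gave 1, 8 and 8 called genes in the 3 comparisons, and since the numbers did not pair the samples this is no sign of a weaker or stronger effect. Parental array 4 is the only array with its number, so the block also takes it out of the comparison.

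The sign differed from the reported one in 186 of 1797 gene-level checks, of which 17 were called in the reported fit or under the alternative. By the brightest row KCNMB4 was -0.0058 in liver against parental cells and 0.64 in lung against liver, where it was called; KCNJ1 was -0.071 in lung against parental cells and -0.17 against liver, with the same values without dim rows. With the set KCNAB2 was 0.028 in lung against parental cells and 0.030 against liver. By the median of rows KCNIP2 was 0.027 and KCNT2 -0.0096 in lung against parental cells. Lung against liver, uncalled members turned to called ones of the other sign: KCNC2 (-0.58) and KCNJ10 (-0.38) by the brightest row and without dim rows, KCNH1 (-0.72) by the brightest row, and KCNA6 (-0.43) and KCNK4 (0.36) without dim rows. The cause was not tested. Dim rows have no detection call in the values used here, so signal over background is unknown for the low members.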
